A study of Mus musculus with 12 samples.

Results

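Claudins and occludin are the membrane proteins of the tight junction whose RNA was described here in the mucosa of the mouse colon and ileum. The genes were Cldn1, Cldn2, Cldn3, Cldn4, Cldn7, Cldn8, Cldn12, Cldn15, Cldn23 and Ocln, which are 10 of the 31276 genes measured. A row of the array table counted for a gene when the platform annotation gave it that symbol alone. This took 119 of 719071 rows, of which 79 covered exon regions and the others exon junctions. Gene values are medians over these rows, taken array by array on the log2 scale.

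The study used arrays of laser-microdissected mucosa of male C57BL6/J mice that were 4 to 6 weeks old and untreated. FSPCre-PPARB -/- mice carried Cre under a promoter labelled FSP, which stands for fibroblast-specific protein, and lacked PPARβ/δ, a nuclear receptor for fatty acids encoded by Ppard, in the cells where that Cre had been active. PPARB flox/flox littermates, labelled without Cre, were the controls. The 12 arrays fell into 4 groups of 3, a knockout and a floxed group for each region. Knockout and floxed are used below as the labels give them. The labels do not say whether the arrays of a group came from separate mice, nor whether colon and ileum arrays of one number came from the same mouse. A p-value therefore sets a difference of group means only against the scatter of these samples, and that scatter may be technical. One label field names sectioned tumours as the source, whereas all other fields name mucosa.

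Tight junctions close the gap between neighbouring epithelial cells just below their apical surface. Claudins form their strands: some seal the gap against ions, and others line pores that let ions or water through, so that the mix of claudins sets how leaky an epithelium is. Occludin sits in the same strands and belongs to the MARVEL family. The ileum is a leakier epithelium than the colon.

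Promoter windows of 8 of the 10 genes were listed in RefSeq's table for the assembly GRCm38.p6, 12 windows in all, each running from 250 bases before to 50 bases after a transcription start. Those shown are the 5 member windows with AGGTCA, the half-site of PPARs and other nuclear receptors, on either strand, since PPARβ/δ is the receptor targeted in these mice. They include both listed starts of Cldn7. Capitals mark exact matches, on either strand, of AGGTCA, of the GC box GGGCGG and of TTTAT, which is the core of sites for the CDX factors.
Cldn4, chr5:134946885-134947184, minus strand: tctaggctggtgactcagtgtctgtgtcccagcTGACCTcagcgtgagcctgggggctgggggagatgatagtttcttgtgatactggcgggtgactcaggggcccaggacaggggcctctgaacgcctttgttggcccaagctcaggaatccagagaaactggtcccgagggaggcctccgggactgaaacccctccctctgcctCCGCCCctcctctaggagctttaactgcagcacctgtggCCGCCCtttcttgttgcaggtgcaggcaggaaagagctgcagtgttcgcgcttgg
Cldn7 first start, chr11:69964529-69964828, plus strand: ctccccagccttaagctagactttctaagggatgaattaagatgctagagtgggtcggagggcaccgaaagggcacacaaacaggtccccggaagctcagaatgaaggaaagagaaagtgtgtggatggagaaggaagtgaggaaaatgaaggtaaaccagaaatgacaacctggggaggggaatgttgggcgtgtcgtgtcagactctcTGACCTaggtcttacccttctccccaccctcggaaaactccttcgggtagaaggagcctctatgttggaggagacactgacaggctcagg
Cldn7 second start, chr11:69965171-69965470, plus strand: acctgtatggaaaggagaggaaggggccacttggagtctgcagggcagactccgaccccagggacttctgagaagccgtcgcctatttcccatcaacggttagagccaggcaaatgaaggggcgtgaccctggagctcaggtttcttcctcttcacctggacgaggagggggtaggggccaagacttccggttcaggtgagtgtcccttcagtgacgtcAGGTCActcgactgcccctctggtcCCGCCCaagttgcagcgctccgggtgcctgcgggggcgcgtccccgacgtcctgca
Cldn15, chr5:136967619-136967918, plus strand: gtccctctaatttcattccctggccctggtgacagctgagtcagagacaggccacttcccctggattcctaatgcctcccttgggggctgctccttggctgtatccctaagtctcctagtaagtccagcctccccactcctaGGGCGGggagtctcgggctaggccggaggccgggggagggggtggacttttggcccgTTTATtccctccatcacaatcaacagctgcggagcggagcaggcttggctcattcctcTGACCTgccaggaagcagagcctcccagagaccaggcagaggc
Ocln first start, chr13:100552669-100552968, minus strand: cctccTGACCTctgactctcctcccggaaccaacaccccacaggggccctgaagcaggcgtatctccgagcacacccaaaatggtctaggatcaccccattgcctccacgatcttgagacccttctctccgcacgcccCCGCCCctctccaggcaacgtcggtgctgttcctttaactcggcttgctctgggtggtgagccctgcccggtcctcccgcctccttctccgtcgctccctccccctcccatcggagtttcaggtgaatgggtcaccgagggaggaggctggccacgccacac
The first 250 bases of each run precede the start. AGGTCA was found in 5 of the 12 member windows, belonging to 4 of 8 genes, and in 16.3% of all 32851 windows of that length. GGGCGG was present in 9 of the 12 windows and in 35.7% of all windows. Only 1 member window held CAAAGT, the core of sites for the HNF4 factors (14.4% of all windows). Counted from the start site, the first base of the half-site was at -217 in Cldn4, at -40 and -31 in the windows of Cldn7, at -245 in Ocln and at 8 in Cldn15. GTTAAT, the half-site of the HNF1 factors, was found in Cldn1 alone (7.1% of all windows). TATAAA was found in Cldn2 alone among the members, at -35, and in 13.6% of all windows; it overlaps TTTAT on the opposite strand, which 40.0% of all windows held. The windows of neighbouring starts of Cldn12 and of Ocln share bases. A match describes letters and is no measured binding site.

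Most regional markers went with the labels of the samples, though their lists were chosen with earlier results of these data known. All 11 ileal enterocyte markers analysed were higher in ileum than in colon with an adjusted p under 0.05 (limma, Benjamini-Hochberg over all genes). Of 11 colonocyte markers 6 were called lower. Of all genes, 1.03% were called higher and 0.78% lower in ileum. The colonocyte markers Muc3 and Hoxd10 went the other way, with higher averages in ileum and no call. Ppard, the targeted gene, was not lower in the knockout arrays: the difference from floxed was 0.15 (SE 0.20) in colon and 0.39 (SE 0.20) in ileum, with adjusted p-values of 0.89 and 0.711. The labels do not name the deleted exons, and the Cre is labelled for fibroblasts, so this level does not check the genotype labels. Among the arrays, 2 stood furthest from their groups on principal components, namely colon floxed 2 (-48.8 on the third component, others from -13 to 11.7) and ileum knockout 1 (-72.3 on the first, others from -35.4 to 43.9). Ileum floxed 2 also stood apart, at 43.9 on the first component against -7.8 and -2.7 in its group. Values without colon floxed 2 and ileum knockout 1 stand beside the genotype counts and the members they moved most. This setting was chosen after seeing the data. Genotype counts without ileum floxed 2 are not given. The negative control rows had medians of 2.458 to 2.714 and 95th percentiles of 5.86 to 6.11 per array. All gene values of Cldn1, Cldn2, Cldn8, Cldn12 and Ocln lay under those percentiles, so their differences may understate a change. These are medians over rows of unlike brightness. Single rows had means of up to 6.72 for Cldn2, 9.23 for Cldn12 and 10.63 for Ocln. In tissue samples, fewer cells of a type and less RNA per cell cannot be told apart.

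None of the 10 claudin and occludin genes passed the test between ileum and colon, where 1.81% of all genes did (566 of 31276, averaged over both genotypes). None passed in floxed or knockout mucosa alone either, where 0.588% and 0.79% of all genes did. Cldn4 and Ocln had the higher means in both ileal groups, by 0.87 and 0.41 log2 units, and Cldn8 the lower means, with a difference of -0.58. Cldn4, Ocln and Cldn8 are the 3 members with an unadjusted p under 0.05, which 9.51% of all genes reached. Both ileal means were also above both colon means for Cldn2 and Cldn7, and below them for Cldn12. For 6 members the ileum was higher and for 4 it was lower. The median difference was 0.13, against -0.01 over all genes. No member had ileum and colon arrays that did not overlap, which 1.81% of all genes had.

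**Figure D1:**
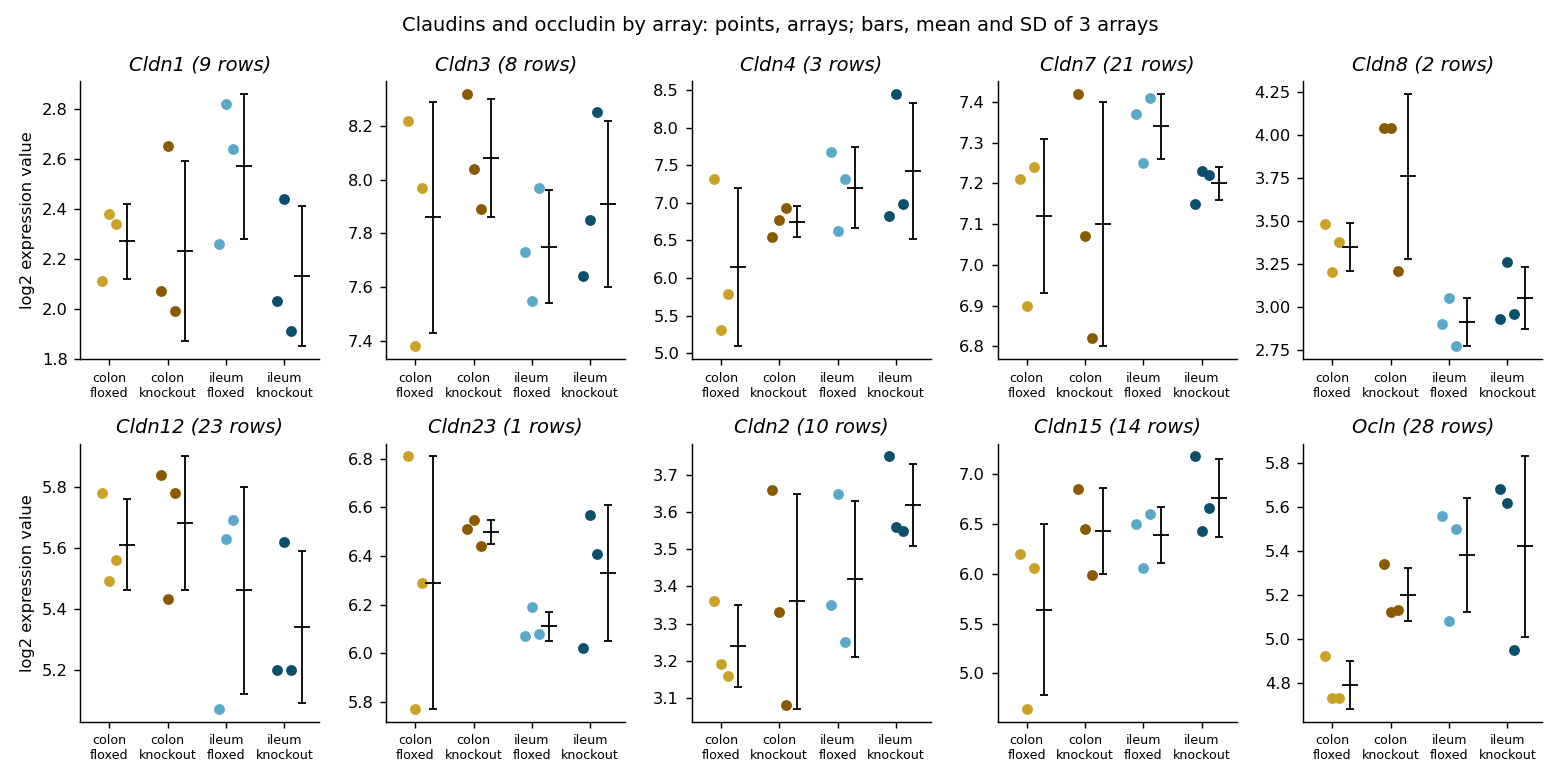
Log2 expression values of the 10 genes in each of the 12 arrays by group. Points are arrays, and the horizontal marks with bars are the mean and SD of 3 arrays; each gene has its own axis, which does not start at 0. Ileum and colon arrays overlap for every gene; for Cldn8 the highest ileum array (3.26) lies just above the lowest colon array (3.20).

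Among the sealing claudins, Cldn8, a barrier claudin of the distal colon and the distal nephron, separated the regions best. It measured 4.04, 4.04 and 3.21 in colon knockout and 3.48, 3.20 and 3.38 in colon floxed. The ileum arrays measured 2.93, 3.26 and 2.96 in knockout and 2.90, 3.05 and 2.77 in floxed mucosa. All colon arrays but 2 (3.20 and 3.21) were above the highest ileum array. The mean difference was -0.58 (SE 0.15, 95% interval -0.90 to -0.26), with an unadjusted p of 0.00187 and an adjusted p of 0.0822. An exact permutation test of this gene alone, two-sided and rearranging arrays within genotype, gave p = 0.01 (smallest possible 0.005). In knockout mucosa the difference was -0.71 (adjusted p = 0.244) and in floxed mucosa -0.45 (adjusted p = 0.806). Without the third colon knockout array (3.21), the one of its group nearest to the ileum values, the adjusted p was 0.00506 at a difference of -0.72. Leaving out an array near the other region widens the difference by construction, so this value adds no support. No other single array left out took the Cldn8 gene value past the threshold in this comparison. Cldn8 rests on 2 rows, 1 with a difference of -0.94 and 1 with -0.22. The first row carried values as low as 1.68, below the array medians of the negative control rows. For that row the difference was -1.16 (adjusted p = 0.0358) without colon knockout 3. It was -0.86 without colon knockout 1 and -0.80 without colon knockout 2 (adjusted p = 0.364 and 0.407, against 0.193 with all arrays).

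Cldn4, a sealing claudin that also binds a clostridial enterotoxin, was the member with the widest spread. Its values were 6.54, 6.77 and 6.93 in colon knockout and 7.32, 5.31 and 5.79 in colon floxed. Ileum knockout gave 6.83, 8.45 and 6.98, and ileum floxed gave 7.68, 6.62 and 7.31. The 2 lowest arrays were colon floxed and the highest was an ileum knockout array, but the groups overlapped. The ileum was higher by 0.87 (SE 0.35, 95% interval 0.11 to 1.63, 1.82-fold), with an adjusted p of 0.416 and an exact p of 0.07. Without colon floxed 2 the difference was 0.657, and without ileum knockout 1 it was 1.01. Of its 3 rows, 2 gave differences of 0.94 and 1.22 and 1 gave -0.26.

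Cldn7, which lies along the lateral membrane and whose loss in mice disrupts the intestinal epithelium, hardly varied as a gene. It gave 7.42, 7.07 and 6.82 in colon knockout and 7.21, 6.90 and 7.24 in colon floxed. The ileum gave 7.15, 7.23 and 7.22 in knockout and 7.37, 7.25 and 7.41 in floxed mucosa. Ileum arrays lay within the range of the colon arrays. The difference was 0.16 (95% interval -0.09 to 0.41, adjusted p = 0.785). When the mean of its 21 rows replaced the median, the difference was 0.35 and passed (adjusted p = 0.0391).

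Cldn3, a sealing claudin found along the whole gut, ranged from 7.38 to 8.32 over the 12 arrays, with group means of 8.08 ± 0.22 (SD, n = 3) in knockout and 7.86 ± 0.43 in floxed colon, and 7.91 ± 0.31 in knockout and 7.75 ± 0.21 in floxed ileum. Its regional difference was -0.14 (95% interval -0.49 to 0.21, adjusted p = 0.898). Cldn1, best known as a claudin of the skin barrier, lay between 1.91 and 2.82. These gene values fell around the medians of the negative control rows, as did 5 of its 9 rows, while others had means of up to 4.96. The gene value could therefore show little of a regional difference (0.10, 95% interval -0.23 to 0.42). Cldn1 measured 2.57 ± 0.29 in ileum floxed and 2.13 ± 0.28 in ileum knockout.

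Of the pore-forming claudins, Cldn15, the sodium pore of the small intestine, had values of 6.85, 6.45 and 5.99 in colon knockout and 6.20, 4.64 and 6.06 in colon floxed. It had 7.18, 6.43 and 6.66 in ileum knockout and 6.50, 6.06 and 6.60 in ileum floxed. The lowest array was colon floxed 2 and the highest ileum knockout 1, the arrays that stood furthest from their groups. The ileum was 0.54 higher (SE 0.26, 95% interval -0.02 to 1.10, 1.46-fold) with an adjusted p of 0.554 and an exact p of 0.09. Leaving out colon floxed 2 took this difference to 0.294, and leaving out ileum knockout 1 took it to 0.435.

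Cldn2, a cation and water pore of the crypts, was at 3.66, 3.33 and 3.08 in colon knockout and 3.36, 3.19 and 3.16 in colon floxed, and at 3.75, 3.56 and 3.55 in ileum knockout and 3.35, 3.65 and 3.25 in ileum floxed. The ileum knockout arrays were above all colon arrays but 1. The regional difference of 0.22 (95% interval -0.04 to 0.48) had an adjusted p of 0.646. It was 0.18 in floxed and 0.26 in knockout mucosa.

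Cldn12, which with Cldn2 has been tied to paracellular calcium passage in mice, measured 5.68 ± 0.22 in knockout and 5.61 ± 0.15 in floxed colon, and 5.34 ± 0.25 in knockout and 5.46 ± 0.34 in floxed ileum. The difference was -0.24 (95% interval -0.54 to 0.06, adjusted p = 0.682). Cldn23, a claudin of differentiated surface cells, rests on 1 row. It ranged from 5.77 to 6.81 in colon and from 6.02 to 6.57 in ileum, with a difference of -0.17 (adjusted p = 0.859).

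Ocln, which stabilises the strands and is a target of junction remodelling, was at 5.34, 5.12 and 5.13 in colon knockout and at 4.92, 4.73 and 4.73 in colon floxed. It was at 5.68, 5.62 and 4.95 in ileum knockout and at 5.56, 5.08 and 5.50 in ileum floxed. Every colon floxed array was below every ileum array, while the colon knockout arrays lay among the ileum arrays. Averaged over genotypes the ileum was higher by 0.41 (SE 0.14, 95% interval 0.10 to 0.71), with an adjusted p of 0.28 and an exact p of 0.045. In floxed mucosa the difference was 0.59 (adjusted p = 0.483) and in knockout mucosa 0.22 (adjusted p = 0.963). The interaction test of these differences gave -0.37 (95% interval -0.98 to 0.25, adjusted p = 1.0).

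**Figure D2:**
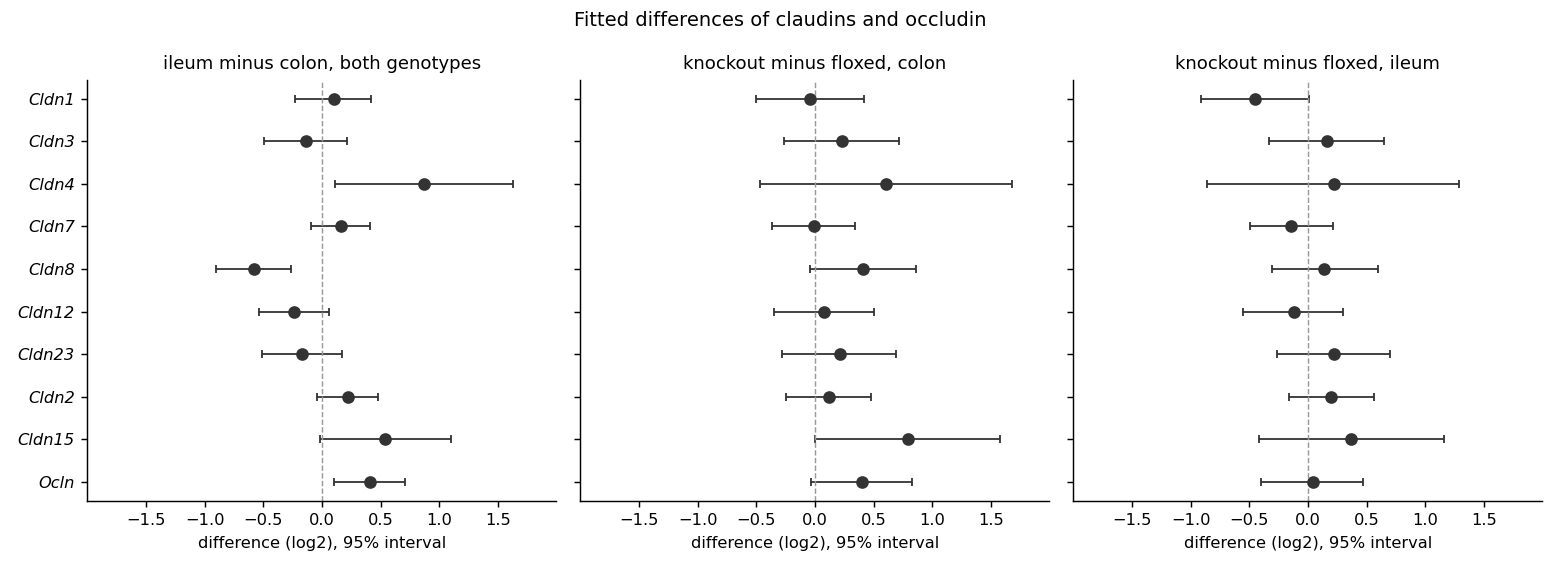
Fitted differences in log2 units with 95% intervals for ileum minus colon averaged over genotypes (left) and for knockout minus floxed in colon (middle) and in ileum (right). The intervals of Cldn4, Cldn8 and Ocln exclude 0 in the left panel before adjustment over all genes; none of the 10 passed after it.

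The order of the 4 groups was rarely clear from the spread. Of 30 steps between neighbouring groups in the order of their means, 4 were larger than the larger SD of both groups. These were Cldn1 between ileum floxed and colon floxed (0.30), Cldn7 between ileum floxed and ileum knockout (0.14), Cldn8 between colon floxed and ileum knockout (0.30) and Ocln between colon knockout and colon floxed (0.40). The other 26 steps were within the spread.

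Between knockout and floxed mucosa no claudin passed, and neither did Ocln, in the colon, in the ileum or averaged over both. No gene at all was called in these contrasts (0.0% of 31276), though 1494 genes in colon and 2079 in ileum had an unadjusted p under 0.05 by limma. None of the members was among those. In colon 8 of 10 members had the higher mean in knockout mucosa, with a median difference of 0.22 against -0.01 over all genes; after quantile normalization 7 were higher, with a median of 0.10. In ileum 7 of 10 were higher, with a median of 0.15 against -0.01, but after quantile normalization 4 were, with a median of -0.07. Without colon floxed 2, 7 of 10 were higher in knockout colon, with a median of 0.05. Without ileum knockout 1, 6 of 10 were higher in knockout ileum, with a median of 0.15. With all arrays, adjusted p-values ran from 0.844 to 0.989 in colon and from 0.711 to 0.968 in ileum.

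In the colon, Cldn15 showed the largest difference between genotypes, 0.79 (SE 0.37, 95% interval -0.00 to 1.58). It was 0.295 without colon floxed 2. The difference of Cldn4 was 0.61 (95% interval -0.47 to 1.68), and 0.191 without the same array. Cldn8 differed by 0.41 (95% interval -0.04 to 0.86) and Ocln by 0.40 (95% interval -0.03 to 0.83). Ocln was the only member whose genotypes did not overlap in colon, with knockout arrays at 5.12 and above and floxed arrays at 4.92 and below. Of all genes, 10.2% did not overlap there.

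In the ileum, Cldn1 was lower in knockout mucosa (difference -0.45, 95% interval -0.91 to 0.01, adjusted p = 0.711), at values around those of the negative controls. Cldn15 was 0.37 higher (95% interval -0.42 to 1.16), or 0.158 without ileum knockout 1. Ocln differed by 0.04 (95% interval -0.40 to 0.47). Cldn7 alone did not overlap between ileal genotypes: all knockout arrays (7.15 to 7.23) were below all floxed arrays (7.25 to 7.41), at a difference of -0.14, and 11% of all genes did not overlap in this comparison. The brightness of the background control rows moved with these groups, from 6.00 to 6.38 in ileum knockout and from 6.60 to 7.06 in ileum floxed. With it as a covariate, the differences of Cldn15, Ocln and Cldn4 were -0.369, -0.417 and -0.272, in the opposite direction and also without a call. The part of background in the genotype differences was not tested further.

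Averaged over both tissues, the 95% intervals of the 10 genotype differences together spanned -0.57 to 1.17. Cldn15 had the smallest p of the members (0.58, SE 0.26, adjusted p = 0.464). The interaction of genotype and tissue ran from -0.42 to 0.08 across the members, with adjusted p-values of 1.0. Contrasts within one tissue and contrasts between tissues share arrays, so these values are not independent of each other.

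Epithelial markers moved with both comparisons, though between regions not all of them in 1 direction. The mean of the 10 epithelial markers lay between 7.33 and 8.04 in knockout colon and between 7.02 and 7.72 in floxed colon. It lay between 8.05 and 8.87 in knockout ileum and between 7.14 and 8.07 in floxed ileum. All 10 were higher in knockout than in floxed mucosa in each tissue (median differences of 0.50 in colon and 0.58 in ileum), with none called; after quantile normalization 9 and 7 were, with medians of 0.12 and 0.13. Without colon floxed 2 the colon median of these markers was 0.44, and without ileum knockout 1 the ileum median was 0.33, with all 10 still higher. Ileum floxed 2, which was not left out, had the lowest floxed ileum mean, 7.14, against a median of 7.99 and a highest of 8.07. In knockout ileum the lowest mean was 8.05 and the median 8.08, with 8.87 in ileum knockout 1. Between regions 7 of the 10 epithelial markers were higher in ileum, with a median difference of 0.45. The means of Krt18, Krt19 and Lgals4 were lower there. Called were 3 of the 10, all higher in ileum, against 1.03% of all genes. Smooth muscle markers were also higher in knockout mucosa, 7 of 7 in each tissue at medians of 0.23 and 0.60 (6 and 7 after quantile normalization), and none called. Without colon floxed 2 and ileum knockout 1, 6 of 7 were higher in each tissue, at medians of 0.14 and 0.24. Goblet cell markers were higher in knockout mucosa for 8 of 8 genes in colon (median 0.26) and 7 of 8 in ileum (median 0.59), and for 4 and 6 after quantile normalization. Without the same arrays 7 of 8 were higher in each tissue, at medians of 0.35 and 0.50. Paneth cell markers were higher for 4 of 5 in colon (median 0.28) and 5 of 5 in ileum (median 1.21). Without those arrays the counts were 4 and 5 and the medians 0.43 and 0.33. Fibroblast markers, of the cells for which the Cre is labelled, were higher for 6 of 7 in each tissue (medians 0.16 and 0.17), for 3 and 4 after quantile normalization, and for 5 in each tissue without those arrays (medians 0.04 and 0.10). None of these marker genes was called between genotypes. Their part in the differences of the claudins was not tested. The 9 endothelial markers, among them Cldn5, the claudin of vessels, had means between 4.12 and 4.39 in all arrays and no calls. Markers of the exocrine pancreas and of hepatocytes had means of 2.92 to 3.59.

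Single rows of the array were tested over all 719071 rows. In ileum against colon, 1 of the 119 claudin and occludin rows passed, while 0.94% of all rows did. The same row passed in floxed mucosa alone (0.285% of all rows), and no member row in knockout mucosa alone (0.381% of all rows). It was an exon region of Cldn7. At an unadjusted p under 0.05, that row included, 22 of the 119 rows were higher in ileum and 3 lower, against 4.26% and 4.13% of all rows. Rows of a gene share its RNA and are not independent. For knockout against floxed averaged over tissues no row passed (0.0% of all rows), with 9 of the 119 rows higher and 10 lower at an unadjusted p under 0.05, against 4.73% and 4.56% of all rows, and a smallest adjusted p of 0.524.

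**Figure D3:**
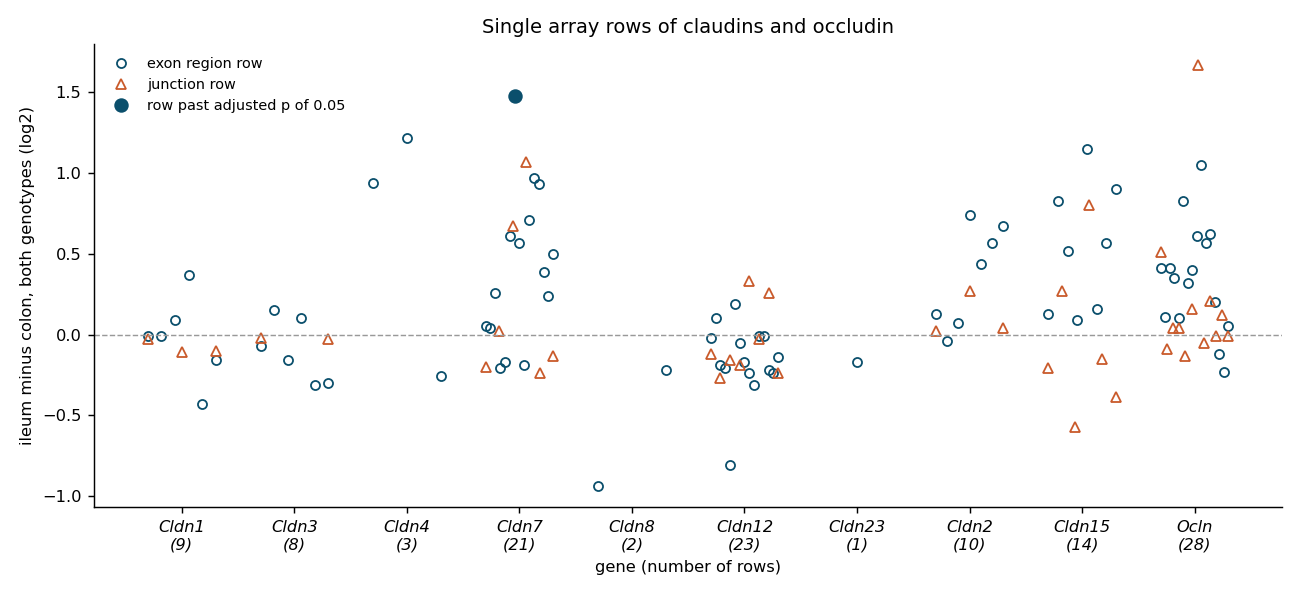
Ileum minus colon difference (log2, both genotypes) of each of the 119 rows, by gene, with circles for exon regions and triangles for junctions and a filled circle for the row with an adjusted p under 0.05. Rows of Cldn7, Ocln and Cldn15 spread upward to 1.48, 1.67 and 1.15, while 19 of the 23 Cldn12 rows lie below 0.

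The Cldn7 exon region that passed was the seventh of 15 in the order of the row identifiers. It measured 5.14, 5.46 and 5.64 in colon knockout and 4.70, 3.94 and 3.35 in colon floxed, and 5.50, 5.74 and 5.95 in ileum knockout and 7.14, 6.37 and 6.38 in ileum floxed. Colon floxed arrays were the lowest and ileum floxed arrays the highest, with both knockout groups between them. The ileum was higher by 1.48 (SE 0.24, 95% interval 0.96 to 1.99, adjusted p = 0.00916). In floxed mucosa the difference was 2.64 (adjusted p = 0.00469), and in knockout mucosa it was 0.31 (adjusted p = 0.957). Knockout minus floxed was 1.42 in colon (unadjusted p = 0.00115, adjusted p = 0.929) and -0.90 in ileum (unadjusted p = 0.0191, adjusted p = 0.684). The test of the difference between both genotype effects gave -2.32 (95% interval -3.35 to -1.29), with an adjusted p of 1.0 over all rows. Leaving out each array in turn kept the regional call, with adjusted p-values of 0.00301 to 0.0302.

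**Figure D4:**
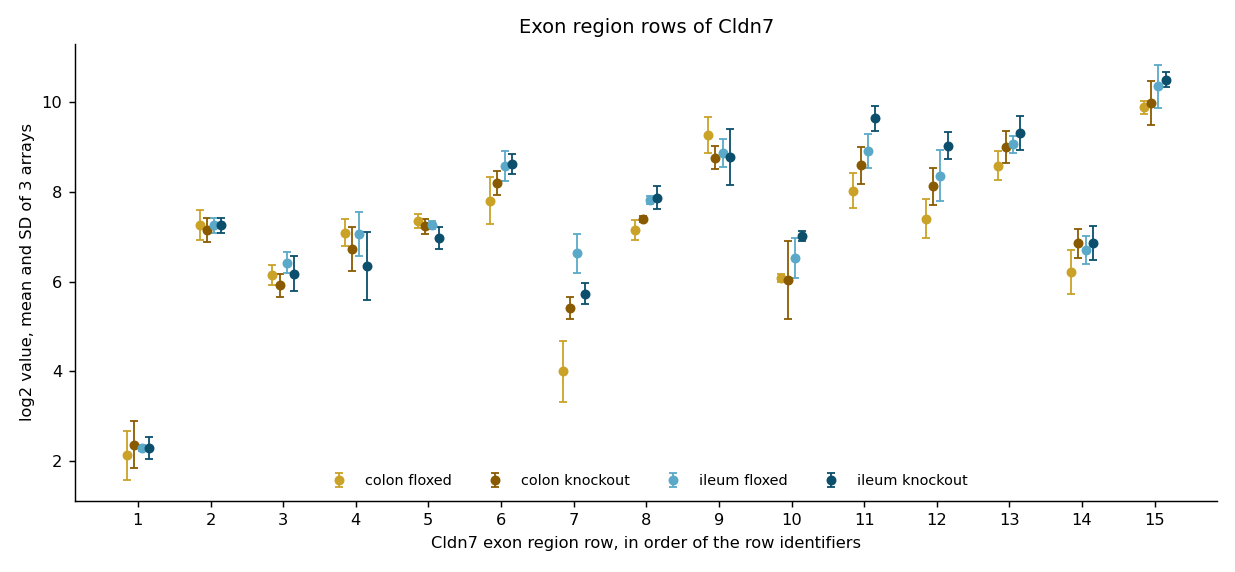
Log2 values of the 15 exon region rows of Cldn7 in the order of their identifiers, as mean and SD of 3 arrays per group. At the seventh region the groups run from 4.00 in colon floxed to 6.63 in ileum floxed; the first 5 regions differ between ileum and colon by -0.21 to 0.26, and the eleventh by 0.97.

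Other rows of Cldn7 were higher in ileum in part of the gene. Of its 21 rows, 9 had an unadjusted p under 0.05, 7 of them exon regions and 2 junctions, and all 9 were higher in ileum. The eleventh exon region was higher by 0.97 (SE 0.21, adjusted p = 0.0557), the twelfth by 0.93 (SE 0.24, adjusted p = 0.131) and the eighth by 0.57 (SE 0.14, adjusted p = 0.121). In the eleventh, values ran from 7.70 to 8.90 in colon and from 8.48 to 9.82 in ileum. The first 5 exon regions differed by -0.21 to 0.26. The 6 junction rows ranged from -0.24 to 1.07. The rows were not placed on the genome here, so it was not tested whether the regions that differ belong to the transcripts of either listed start.

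The rows of Ocln also differed from each other. A junction row was higher in ileum by 1.67 (SE 0.36, adjusted p = 0.0583), with means of 4.55 ± 0.49 (SD, n = 3) in colon floxed, 4.70 ± 1.07 in colon knockout, 6.07 ± 0.76 in ileum floxed and 6.52 ± 0.33 in ileum knockout. All ileum arrays but 1 were above all colon arrays. Of the 16 exon region rows 14 were higher in ileum, against 7 of 12 junction rows. Between genotypes the exon regions went both ways, from -0.79 to 0.63 averaged over tissues. The thirteenth was lower in knockout mucosa (difference -0.79, SE 0.19), and the eleventh was higher (difference 0.63, SE 0.15), both with an adjusted p of 0.524. The thirteenth measured 6.28, 6.48 and 6.20 in colon floxed and 5.35, 5.28 and 6.16 in colon knockout, and 6.32, 6.92 and 6.51 in ileum floxed and 5.72, 5.53 and 5.97 in ileum knockout. Its knockout arrays were below all floxed arrays in each tissue. This row had the lowest genotype difference of the 16 exon region rows of Ocln, so it is an extreme among several. How often other rows separate in 1 direction in both tissues was not tested.

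All 8 exon regions of Cldn15 were higher in ileum, by 0.09 to 1.15, whereas its 6 junctions ranged from -0.57 to 0.80. Of the 10 Cldn2 rows 9 were higher in ileum, up to 0.74. Cldn12 had the opposite pattern, with 19 of 23 rows lower in ileum and a range of -0.81 to 0.33. The 8 rows of Cldn3 stayed within -0.31 and 0.15, and the 9 of Cldn1 within -0.43 and 0.37.

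The other genes of the family and of the junction were set beside these. Of 24 further claudins and claudin-like genes 22 were analysed, and none passed in any contrast. Their regional differences ran from -0.35 (Cldn11) to 0.24 (Cldn34c1), with a median of -0.04. Between genotypes 6 of the 22 were higher in knockout colon (median -0.14) and 2 in knockout ileum (median -0.10), against 7 and 2 after quantile normalization. Without colon floxed 2 and ileum knockout 1 these counts were 5 and 7, with medians of -0.13 and -0.06. Of 58 other genes of tight junctions, adherens junctions and desmosomes 53 were analysed. Between regions 1 passed as higher and 1 as lower in ileum, 51 did not pass, and the median difference was 0.15 against -0.01 over all genes; the background was 1.03% of all genes called higher and 0.78% called lower. Between genotypes none of the 53 passed, with 43 higher in knockout colon (median 0.18) and 35 in knockout ileum (median 0.14), against 34 and 26 after quantile normalization. Without colon floxed 2 and ileum knockout 1 the counts were 39 and 28, with medians of 0.11 and 0.03.

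Both genes that passed encode angulins, which mark the contacts where 3 cells meet and bring tricellulin there. The listed angulin Ildr2, from 3.21 to 4.04 over the arrays, did not pass between regions (difference -0.10, SE 0.13, adjusted p = 0.92). Ildr1, which is also needed for hearing in mice, measured 6.92, 6.66 and 6.43 in knockout and 6.55, 5.72 and 6.25 in floxed colon. In ileum it measured 5.04, 4.89 and 4.71 in knockout and 4.48, 4.51 and 4.74 in floxed mucosa. Every ileum array was below every colon array. The difference was -1.69 (SE 0.14, 95% interval -2.01 to -1.38, adjusted p = 2.12e-05). Lsr, also known as a lipoprotein receptor of the liver, measured 5.88, 6.14 and 5.48 in colon knockout and 5.78, 5.83 and 5.66 in colon floxed, and 7.15, 6.96 and 6.78 in ileum knockout and 6.77, 6.26 and 6.68 in ileum floxed. Every ileum array was above every colon array. The difference was 0.97 (SE 0.13, 95% interval 0.68 to 1.26, 1.96-fold, adjusted p = 0.00141). Tjp1, which encodes the scaffold that claudins bind, had a difference of 0.31 (SE 0.15, adjusted p = 0.535).

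Marveld2, which encodes tricellulin itself, differed between regions by 0.28 (SE 0.13, adjusted p = 0.773) in floxed mucosa and by -0.27 (SE 0.13, adjusted p = 0.695) in knockout mucosa, which averaged to 0.01. It measured 5.52, 5.49 and 5.53 in colon knockout and 5.37, 5.12 and 5.29 in colon floxed, and 5.20, 5.26 and 5.27 in ileum knockout and 5.41, 5.65 and 5.56 in ileum floxed. Knockout arrays were above all floxed arrays in colon and below all of them in ileum. The interaction of genotype and tissue was -0.55 (SE 0.18, 95% interval -0.93 to -0.16, unadjusted p = 0.00886) and did not pass over all genes (adjusted p = 1.0). Marveld2, Ildr2 and Tjp1 were named after their values had been seen.

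**Figure D5:**
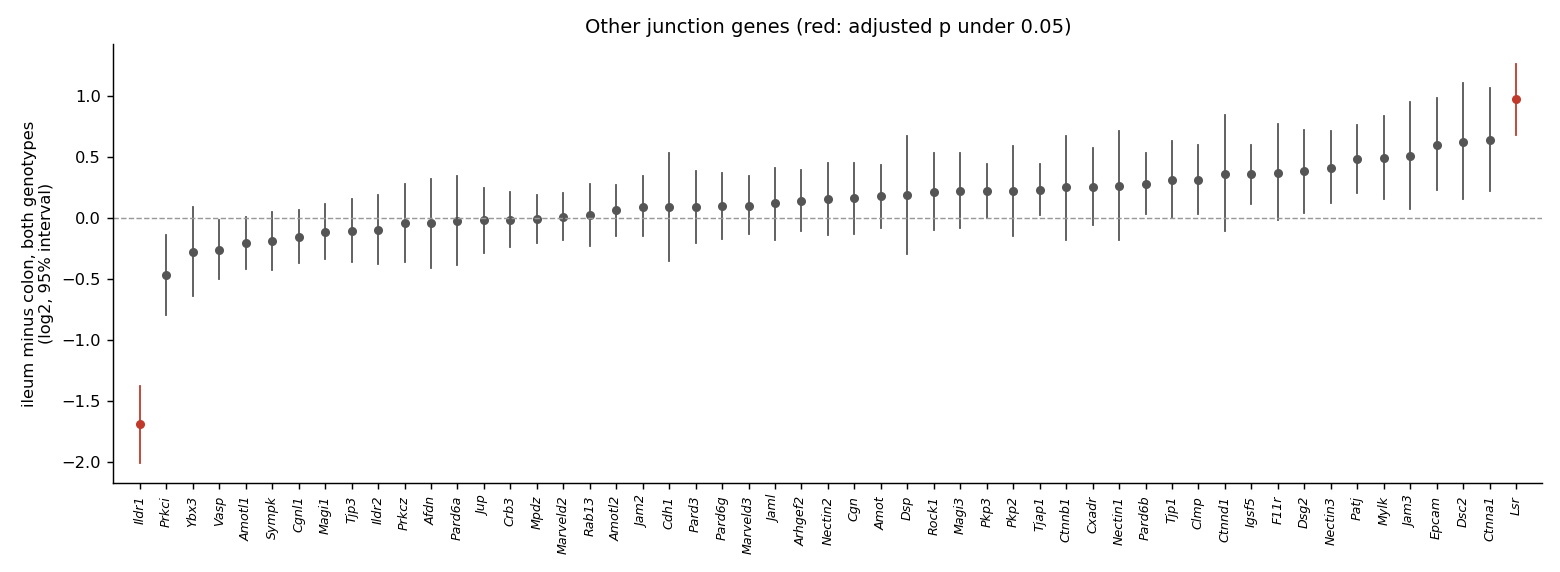
Ileum minus colon differences (log2, both genotypes) with 95% intervals for the 53 other junction genes, in order of size. Ildr1 at -1.69 and Lsr at 0.97, drawn in red, have adjusted p-values under 0.05; the other 51 lie between -0.47 (Prkci) and 0.64 (Ctnna1).

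Transcription factors that differ along the gut were measured in the same arrays. Of 13 listed 10 were analysed, and 1 passed in each direction between regions, where 1.03% of all genes were called higher and 0.78% lower in ileum. Hnf4g, which drives enterocyte genes, was higher in ileum by 1.54 (SE 0.23, adjusted p = 0.0025), and Klf4, a factor of goblet and surface cells, was lower (difference -0.64, SE 0.15, adjusted p = 0.0497). None passed between genotypes. Both were named because they passed.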

How the data were processed

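The deposited series table holds log2 expression values of 12 arrays. These log2 values were made by the authors with RMA and Partek, per the submitters' processing notes. Their settings and the genome build are not given in the sources used here. Of 725678 rows, 6607 were controls, and each array column matched 1 sample. Rows were named through the platform annotation and older symbols were updated. Gene values, medians over a gene's rows, were fitted with limma 3.58.1 in R 4.3.3, with a mean per group over all 12 arrays (lmFit, eBayes; 8 residual and 4.72 prior degrees of freedom). P-values were two-sided, adjusted with Benjamini-Hochberg over all 31276 genes, or over all 719071 rows, and called at 0.05. The exact test rearranged arrays within genotype in 400 ways.

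The members and gene lists, which included epithelial, enterocyte, colonocyte, goblet, Paneth, endothelial, smooth muscle, fibroblast, immune, neural, pancreatic and hepatocyte markers, were chosen with earlier results of these data known, and the promoter motifs after these results were seen. Goblet, Paneth and fibroblast markers had 1 regional call each, higher in ileum for Paneth and lower for goblet and fibroblast markers. Immune and neural markers had none. Of all genes, 1.03% were called higher and 0.78% lower in ileum. Named were all members and, of the other claudins and junction genes, up to 4 called genes per direction. The fit was tested on simulated data with known changes. Arrays carry no read depth, and their number limits the precision. Alternatives covered the row summary, normalization, background, dim genes, the variance model, replicate numbers and single arrays.

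The titles number the arrays 1 to 3 in each group. Deviations from group means correlated between same-numbered colon and ileum arrays of a genotype with r of -0.128 to 0.531 across genes, over 0.1 in 4 of 6 pairs. The median r was 0.162 for these pairs, 0.157 for all same-numbered pairs of groups and -0.098 for pairs of different numbers. As r was not over 0.1 in all 6 pairs, the numbers were not taken to pair the samples. What the same-numbered arrays share was not tested.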

Additional observations from a re-analysis of the deposited data

Results flagged for a closer look

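A pair of results were picked out, because their genotypes separate in opposite directions in the tissues. In the seventh exon region row of Cldn7, every colon knockout array (5.14 to 5.64) was above every colon floxed array (3.35 to 4.70), and every ileum knockout array (5.50 to 5.95) was below every ileum floxed array (6.37 to 7.14). The difference between the genotype effects, ileum minus colon, was -2.32 (SE 0.47, unadjusted p = 0.000363, adjusted p = 1.0 by limma over all rows), so the difference did not pass the test over all rows. This was 1 of the 119 rows of claudins and occludin, and 0.339% of all rows on the array had the same kind of separation. The gene value of Cldn7 had an interaction of -0.13 (SE 0.23).

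The other was Marveld2, the tricellulin gene, where knockout arrays were above floxed arrays in colon and below them in ileum. Its interaction was -0.55 (SE 0.18, unadjusted p = 0.00886, adjusted p = 1.0 by limma over all genes). Of all genes, 0.192% had the same kind of separation (60 of 31276).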

How the results depend on the processing

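Values of single members under other settings were tallied for ileum against colon averaged over genotypes and for knockout against floxed within each tissue. Of these 501 values, 462 kept direction and side of the threshold, 2 newly passed and 37 changed sign, all 37 without a call. None lost a call because none had one. Calls in the other contrasts were not part of this tally. The count of members called, 0 in every contrast, became 1 in ileum against colon with the mean of rows (Cldn7) and ranged from 0 to 1 over single arrays left out, there and in knockout mucosa alone (Cldn8 without colon knockout 3, adjusted p = 0.0178). The count of called rows, 1, became 4 with rows of mean 5 or more and 3 with the replicate block, and ranged from 1 to 4 over arrays left out. Members under 0.05 by the exact test ranged from 1 to 5 around 2 when single arrays were left out, a setting chosen after seeing the data. The replicate block, by number alone or by number within genotype, left the count of members called at 0 where it was fitted. Lsr and Ildr1 kept their calls under all alternatives run, from 0.659 to 1.05 and from -1.81 to -1.30. The cause of the changes was not tested.

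Changes of sign came as follows. With the mean of rows, Cldn1 between regions was -0.045, and knockout against floxed was 0.183 for Cldn7 and -0.010 for Cldn12 in colon and 0.015 for Cldn7 in ileum. With exon regions alone, Cldn1 between regions was -0.095, and the colon genotype differences were 0.085 for Cldn1, 0.080 for Cldn7 and -0.049 for Cldn12. With quantile normalization, they were 0.051 for Cldn1, -0.137 for Cldn3 and -0.045 for Cldn12 in colon, and -0.272 for Cldn3, -0.113 for Cldn4 and -0.036 for Ocln in ileum. With array background as a covariate, they were 0.057 for Cldn1 in colon, and -0.037 for Cldn3, -0.272 for Cldn4, -0.031 for Cldn8, -0.369 for Cldn15 and -0.417 for Ocln in ileum. Over arrays left out, colon genotype differences ranged from -0.248 to 0.084 for Cldn1, -0.034 to 0.256 for Cldn2, -0.010 to 0.408 for Cldn3, -0.173 to 0.128 for Cldn7, -0.001 to 0.200 for Cldn12 and -0.051 to 0.470 for Cldn23. In ileum they ranged from -0.008 to 0.299 for Cldn3, -0.301 to 0.510 for Cldn4 and -0.115 to 0.271 for Ocln.

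With 3 arrays per group, differences of the size seen between genotypes had intervals that included 0 for every member in each tissue. Of the 119 rows, 15 had means under the highest array median of the negative controls, 5 of them of Cldn1, 3 each of Cldn2 and Ocln, 2 of Cldn12 and 1 each of Cldn7 and Cldn8, a level at which log2 differences understate a change.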
